A study of Rattus norvegicus with 2 samples.

Results

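Border-associated macrophages (BAMs) were described in single-cell RNA sequencing libraries of the rat hypothalamus, 1 of Control and 1 of SC300 rats. A cell barcode was taken as a BAM when it had at least 200 detected genes, UMIs of at least 2 of the 4 genes *Mrc1*, *Cd163*, *Lyve1* and *F13a1*, at least 1 UMI of *Csf1r*, *C1qa* or *Aif1*, fewer than 2 UMIs of the microglia gene *Tmem119*, and fewer than 2 of *Snap25*, *Mog*, *Cldn5* and *Gja1* detected. UMIs are random tags that count each captured RNA molecule once. This gave 55 BAMs among 8675 barcodes, 14 of 4296 in Control and 41 of 4379 in SC300. Both groups were female Sprague Dawley rats sampled at PND 29 (4 weeks of age). In SC300, capsules of silicone tubing that held 300 µg of EB (estradiol benzoate) had been implanted at PND 0.5. Control rats are called intact in the sample labels and carried an oil capsule according to the methods. Hypothalamic tissue with the AVPV and the ARC was digested with collagenase, and tissue of 3 rats was pooled for the 1 library of each group. Neither the sequencing counts nor the labels separate the rats of a pool, so the variation between rats is not known, no test between the groups was possible, and all intervals (exact 95%, in parentheses) cover counting error only.

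BAMs are the resident macrophages of the brain's borders. They line vessels in the perivascular space and lie in the meninges and the choroid plexus, outside the parenchyma that microglia occupy. They are known for scavenger and lectin receptors that take up material from blood and cerebrospinal fluid, and part of them carries MHC class II molecules, which present peptides to helper T cells.

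Adding the criteria on marker genes, myeloid genes, *Tmem119* and other lineages in turn left 19, 18, 15 and 14 barcodes in Control and 47, 47, 43 and 41 in SC300. All 4 marker genes were detected in 7 Control and 27 SC300 BAMs, exactly 3 in 6 and 10, and exactly 2 in 1 and 4. Just outside the rule lay 17 Control and 20 SC300 barcodes with 1 of the 4 marker genes, of which 4 in each library held *Pf4* UMIs. A further 2 Control and 4 SC300 barcodes failed only on *Tmem119*, with 8 to 9 and 4 to 20 UMIs of that gene. The 1 Control barcode that failed only on the myeloid genes held 389 UMIs of *Pf4*, 17 of *F13a1*, 60 of *Clec1b*, 21 of *Treml1* and 7 of *Itga2b*. The last 3 are genes of platelets and megakaryocytes, which also express *Pf4* and *F13a1*. Among BAMs, *Itga2b* had 0 UMIs in both libraries and *Treml1* 0 in Control and 2 in SC300. A barcode sequence occurred in both libraries 9 times, and 0 of these were BAMs.

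The kept barcodes held 51382276 UMIs in Control and 56390355 in SC300. The Control BAMs summed to 96902 UMIs and the SC300 BAMs to 360563, with medians of 6072 and 8500 UMIs and 2052 and 2308 genes per cell. Mitochondrial genes, taken as those with an Mt- symbol, held a median of 10.7% and 11.7% of a BAM's UMIs. Microglia of the same libraries, defined by at least 2 of *Tmem119*, *P2ry12*, *Cx3cr1* and *Gpr34* and fewer than 2 of the 4 BAM genes, numbered 461 and 443 with 3658694 and 3605679 UMIs. Their medians were 7370 and 7915 UMIs per cell and 6.68% and 8.0% mitochondrial UMIs. Levels are given below as CPM, which are UMIs of a gene per 1000000 UMIs summed over all cells of a class, and ratios as log2.

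BAMs made up 0.326% (0.178–0.546) of Control barcodes and 0.936% (0.673–1.27) of SC300 barcodes. The share was 2.87 times as high in SC300, a log2 ratio of 1.52 (0.62 to 2.51), and the intervals of both shares did not overlap. Microglia made up 10.7% and 10.1%. With BAMs counted against BAMs plus microglia the log2 ratio was 1.52 again. After all barcodes were thinned to 2000 UMIs before the rule was applied, 13 Control and 36 SC300 barcodes passed it and the log2 ratio was 1.37. How far such a share moves between pools or dissections could not be measured.

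*Mrc1* and *Pf4* were detected in 13 of 14 Control and 40 of 41 SC300 BAMs. *Mrc1*, the mannose receptor, had 339 UMIs in Control and 1122 in SC300 BAMs (3498 and 3112 CPM). *Cd163*, the receptor for haemoglobin bound to haptoglobin, had 33 and 143 UMIs (341 and 397 CPM) and was detected in 10 and 35 cells. *Lyve1*, a hyaluronan receptor, had 155 and 511 UMIs (1599.6 and 1417 CPM) in 14 and 37 cells. *F13a1*, which encodes the A subunit of a clotting transglutaminase, had 59 and 356 UMIs (609 and 987 CPM) in 11 and 34 cells. These values chose the members and are no finding. *Pf4*, a chemokine gene outside the rule, had 234 and 786 UMIs (2415 and 2179.9 CPM), with a median of 14.5 UMIs per Control BAM and 16 per SC300 BAM. It was at 76.5 and 51.6 CPM in microglia, 38.8 and 51.1 CPM in endothelial cells and 0.274 and 1.68 CPM in oligodendrocytes, a class that should lack it. After each cell was thinned to 2000 UMIs, *Pf4* was detected in 92.9% of 14 Control and 97.4% of 39 SC300 BAMs (2 SC300 BAMs were too shallow). The thinned share was 14.0% and 9.98% in microglia and 0 of 332 and 0 of 444 in oligodendrocytes. Without thinning, 1 oligodendrocyte of 339 and 1 of 445 had a *Pf4* UMI, at median depths of 19921 and 20588 UMIs.

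**Figure D1:**
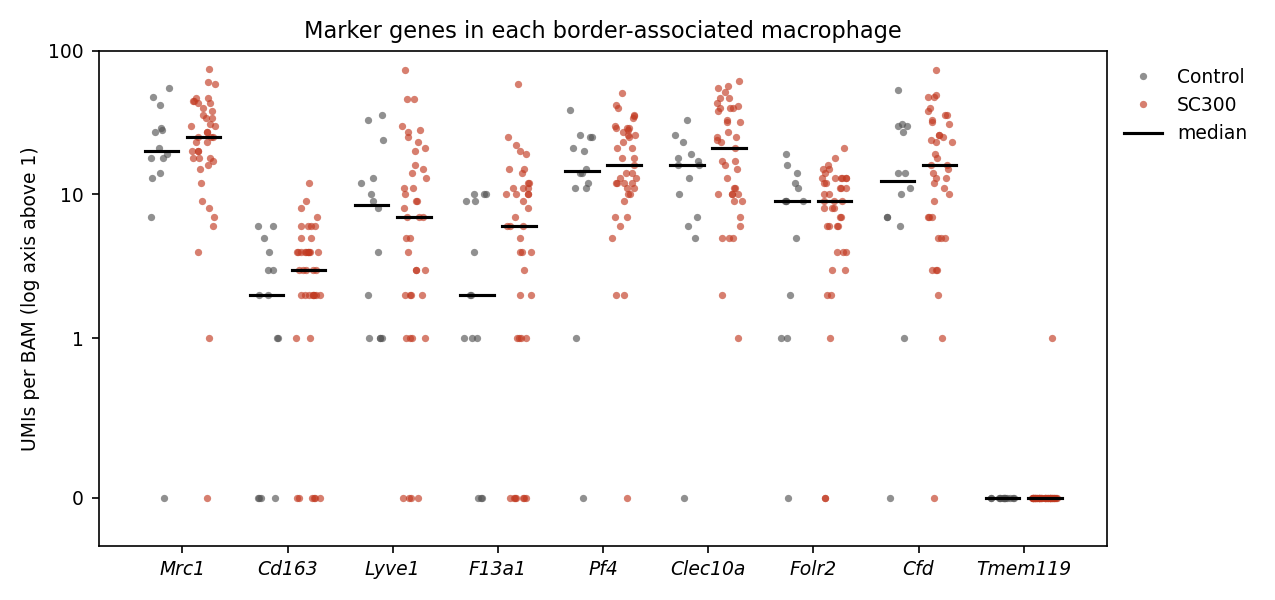
UMIs of 9 genes in each BAM, Control in grey and SC300 in red, with the median of each library as a black bar. Mrc1, Cd163, Lyve1, F13a1 and Tmem119 belong to the rule. Most BAMs of both libraries held 10 or more UMIs of Mrc1 and Pf4, Tmem119 was at 0 in all but 1, and the libraries overlapped for every gene.

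Other genes known for border macrophages, none of them used by the rule, were also present. Of 20 such genes in the files, 17 had a mean of 20 CPM or more over BAMs and microglia, and 15 of these were 2-fold or more higher in BAMs than in microglia in both libraries, with a median log2 ratio of 4.98 in Control and 5.33 in SC300. Among all 5070 genes compared, 399 were that much higher, which is 7.87%, and the median ratios were 0.01 and 0.04. Some of these genes met that minimum only through BAMs, such as *Ccl24*, which had 0 UMIs in microglia. The list was also chosen with earlier results of these data known, so the count describes BAMs and does not test their label. *Siglec1* was low at 1 and 22 UMIs, and *Vsig4* had 0 UMIs in both libraries, for which the limit taken here, 3 UMIs, comes to 31.0 CPM in Control and 8.32 CPM in SC300. Of 15 microglia genes compared, 13 were 2-fold or more lower in BAMs in both libraries and 0 were higher. The background for that direction was 327 of 5070 genes, or 6.45%. The microglia list holds *Tmem119*, *P2ry12*, *Cx3cr1* and *Gpr34*, the genes that defined the microglia. Their direction was set by the class rules and is no finding.

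BAMs were set against microglia to see which genes separate both macrophage types within each library. Among genes outside the rule, the one furthest above microglia in both libraries was *Clec10a*, a galactose-binding lectin, with 209 UMIs in Control and 993 in SC300 BAMs against 1 UMI in the microglia of each library. Its log2 ratio was 12.95 (10.45 to 18.26) and 13.28 (10.80 to 18.58). *Cfd*, the complement protease adipsin, stood at 2487 and 2288 CPM against 1.91 and 2.22 CPM in microglia. *Colec12*, a collectin scavenger receptor, had 34 and 239 UMIs against 1 and 5. *Fcmr*, a receptor for IgM, had 42 and 132 UMIs in BAMs and 0 in microglia. With microglia set to 3 UMIs it was at least 529-fold and 440.0-fold higher before counting error. With counting error, the exact lower limits of its log2 ratio were 8.68 and 8.46.

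The other genes at the top of this order that the rule did not use were *Fxyd2*, *Igfbp3*, *Igfbp4*, *Ccr1*, *Ccl24*, *Ms4a7*, *Plbd1* and the unnamed gene *AABR07038983.1*. The insulin-like growth factor binding protein genes *Igfbp3* and *Igfbp4* had 65 and 20 UMIs in Control BAMs, and 213 and 109 in SC300 BAMs. Microglia held 9 and 2 UMIs of *Igfbp3* and 0 of *Igfbp4*. The chemokine receptor gene *Ccr1* had 21 and 74 UMIs in BAMs and 0 in microglia. A single Control BAM held over 25% of the Control UMIs of *Igfbp3* (36.9%), *Ccl24* (37.5%), *AABR07038983.1* (33.3%), *Fxyd2* (31.2%) and *Fcmr* (26.2%), and no SC300 BAM did so for any of them.

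At the other end stood *Tmem119*, which the rule used, and genes it did not use. *Sparc*, a secreted matrix protein, was at 6865 and 6031 CPM in microglia and 10.3 and 261 CPM in BAMs. The transcription factor gene *Cebpa* was 18.3 and 26.8 times as high in microglia, and *Anxa3* 23.3 and 14.7 times. The fatty acid receptor gene *Gpr84* was 15.3 and 67.3 times as high, the lectin gene *Clec2l* 28.5 and 16 times, and the cytokine gene *Il33* 13.8 and 18.6 times. Some of these folds rest on few UMIs. *Clec2l* had 1 and 8 UMIs in BAMs, with a Control log2 ratio of −4.83 (−10.14 to −2.35). *Cebpa* had 5 and 7, and its 5 Control UMIs lay in 1 cell. The haemoglobin genes *Hba-a2* and *Hba-a2.1* were also among the 10 lowest. *Hba-a2* had 3 and 4 UMIs in BAMs and 6098 and 1525 in microglia. *Cst3*, a cysteine protease inhibitor with very many UMIs in microglia (81608 and 77831 CPM), was at 7554 and 9149.6 CPM in BAMs.

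**Figure D2:**
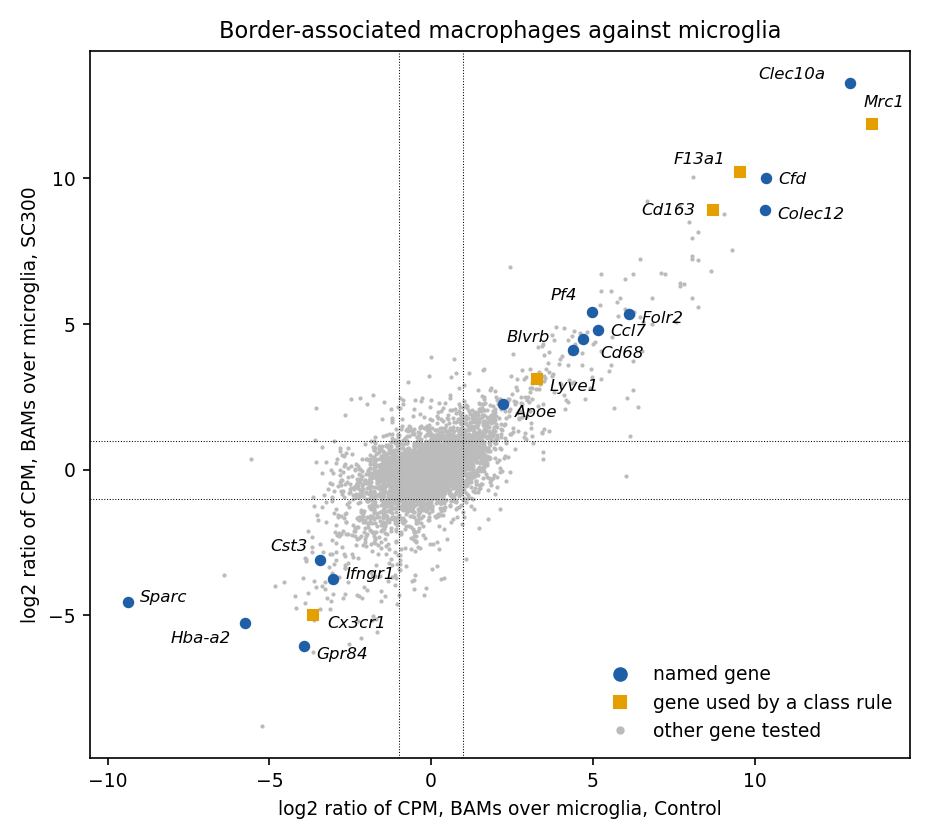
Log2 ratio of CPM in BAMs over microglia, Control on the horizontal and SC300 on the vertical axis, for 5070 genes with a mean of 20 CPM or more, with dotted lines at 2-fold. Labelled genes are blue circles, or orange squares where a class rule used them. Clec10a, Cfd and Colec12 lie above 8 on both axes, and Sparc and Gpr84 lie below −3.

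How many genes fell on each side depended on the scaling. With ratios centred on the median gene, which moved the values by 0.36 in Control and 0.22 in SC300, 287 genes were higher in BAMs and 481 lower. With totals that leave out mitochondrial, ribosomal protein and haemoglobin genes, 479 were higher and 261 lower.

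Genes for uptake and breakdown were described next. Of 8 scavenger and uptake receptor genes compared, 4 were 2-fold or more higher in BAMs and 1 lower, where 7.87% and 6.45% of all genes were. *Colec12* and *Dab2* are also on the list of border macrophage genes above, so both counts share genes. Besides *Colec12*, *Dab2*, an endocytic adaptor, had 59 and 206 UMIs (609 and 571 CPM) and was 76.8 and 42.9 times as high as in microglia. The folate receptor gene *Folr2* was 70.1 and 40.2 times as high. Lysosome genes went both ways, with 4 of 18 higher and 4 lower, beside the same 7.87% and 6.45%. *Cd68*, a lysosomal membrane glycoprotein, was at 908 and 813 CPM in BAMs and 34.7 and 36.1 CPM in microglia, while *Npc2*, which carries cholesterol out of lysosomes, was lower at 1166 and 868 against 3253 and 2974 CPM.

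Iron and haem genes had 3 of 10 higher and 2 lower (all genes 7.87% and 6.45%). *Blvrb*, a biliverdin reductase of haem breakdown, had 29 and 101 UMIs and was 21.1 and 17.1 times as high as in microglia. The ferritin genes *Fth1* and *Ftl1* were at 9711 and 8999.8 CPM and at 7884 and 7466 CPM. *Hmox1*, haem oxygenase, was at 319.9 and 397 CPM in BAMs and 327 and 309 CPM in microglia. *Slc40a1*, the iron exporter, had 0 UMIs in the BAMs and microglia of both libraries. Lipid handling genes had 3 of 12 higher and 1 lower. *Apoe*, the apolipoprotein, held the most UMIs in BAMs of both libraries together outside genes with an Mt- symbol and ribosomal protein genes, 2019 in Control and 10982 in SC300, and its level was 4.62 and 4.74 times that of microglia.

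The list of chemokines and their receptors summed to 16966 CPM in Control and 19619 CPM in SC300 BAMs, and to 11619 and 12858 CPM in microglia. Of 14 genes compared, 8 were higher in BAMs and 4 lower (all genes 7.87% and 6.45%). Among the lower ones was *Cx3cr1*, which defined the microglia, so its direction was set by the class rules. *Pf4* and *Ccl24* are also on the list of border macrophage genes above. *Ccl2*, which attracts monocytes, had 379 and 1845 UMIs (3911 and 5117 CPM). *Ccl7*, its neighbour in the family, had 386 and 1559 UMIs (3983 and 4324 CPM) and was 35.8 and 27.6 times as high as in microglia. The neutrophil attractant *Cxcl1* had 136 and 606 UMIs and was 54.1 and 53.6 times as high.

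These UMIs lay in part of the cells. *Ccl7* ranged from 0 to 148 UMIs per Control BAM (median 3.5) and from 0 to 286 per SC300 BAM (median 3), with 10 or more UMIs in 6 of 14 and 14 of 41 cells. The richest cell held 38.3% of these UMIs in Control and 18.3% in SC300. As shares of a cell's UMIs, *Ccl7* and *Ccl2* had a Spearman rho of 0.94 over the 14 Control and 0.66 over the 41 SC300 BAMs, and *Ccl7* and *Cxcl1* one of 0.75 and 0.56. The points share a library and differ in depth. *Ccl12*, with 54 and 178 UMIs, was detected in 4 Control and 12 SC300 BAMs, and 1 cell held 70.4% and 50.6% of it. The macrophage inflammatory chemokine gene *Ccl4* went the other way, at 423 and 1672 CPM in BAMs and 4799.8 and 5573 CPM in microglia.

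The next lists are small, and a single gene of 8 to 10 is close to the 7.87% of all genes that were higher and the 6.45% that were lower. Fc receptor genes had 2 of 5 higher in BAMs and 1 lower. *Fcgrt*, the receptor that recycles immunoglobulin G, was at 2528 and 2344 CPM against 225 and 255 CPM. Complement genes had 1 of 9 higher and 2 lower, in a list that held neither *Cfd* nor the rule gene *C1qa*. The receptor gene *C5ar1* was at 330.2 and 280.1 CPM against 39.4 and 44.4 CPM, and the recognition subunit *C1qc* had 446 and 1575 UMIs. Oxidative burst genes had 1 of 10 higher and 0 lower, the higher one being *Cybb*, the catalytic subunit of the phagocyte oxidase, at 846 and 818 against 39.4 and 102 CPM. Innate sensing genes had 1 of 8 higher, the endotoxin receptor gene *Cd14* at 196 and 288 against 12.3 and 20.5 CPM, and 2 lower.

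Among macrophage transcription factors, 2 of 14 were higher and 5 lower in BAMs (all genes 7.87% and 6.45%). *Sall1*, a factor of microglial identity, had 0 and 4 UMIs against 264 and 251 CPM in microglia. *Spi1*, the myeloid factor PU.1, was at 268 and 266 CPM against 300.4 and 351 CPM. Of 7 CSF and TGF-beta receptor genes compared, 2 were higher and 2 lower, with *Csf2ra*, a chain of the GM-CSF receptor, at 186 and 147 CPM against 18.6 and 14.4 CPM, and *Ifngr1*, the interferon-gamma receptor, at 217 and 125 against 1761 and 1673 CPM. Cytokine and growth factor genes had 2 of 9 higher and 2 lower, and coagulation and matrix genes 1 and 1 of 5.

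MHC class II UMIs lay mostly in a few BAMs. *Cd74*, the invariant chain, had 277 UMIs in Control and 448 in SC300 and was detected in 3 of 14 and 16 of 41 cells. The chain genes *RT1-Da*, *RT1-Db1*, *RT1-Ba* and *RT1-Bb* had 248, 156, 83 and 10 UMIs in Control and 131, 85, 54 and 7 in SC300. All 5 genes compared were 2-fold or more higher in BAMs than in microglia in both libraries (all genes 7.87%). With the richest cell of each class left out for each gene, the Control ratio of *RT1-Da* was −0.43, in the other direction. A single Control BAM decided the Control level, with 734 UMIs of these 5 genes, 5.43% of its RNA. In it lay 98.4% of the Control UMIs of *RT1-Da* and 87.0% of those of *Cd74*. This cell also had 305 UMIs of *Lyz2* (lysozyme), 44 of *Vim* (an intermediate filament), 7 of *Mrc1*, 15 of *Pf4*, 13 of *Clec10a*, 1 of *Lyve1*, 0 of *F13a1*, 0 of *Cd163* and 1 of *Flt3*, a gene of dendritic cells. The other Control BAMs had 30, 10 and, in 11 of 14, 0 UMIs of class II genes. A split of each library into cells of high, middle and low class II share was planned and could not be made, because most Control BAMs are at 0.

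In SC300, 5 of 41 BAMs (12.2%, 4.08–26.2) had 30 or more class II UMIs, a limit set after the values were seen, with 54, 103, 113, 163 and 249 UMIs. The highest of the other 36 had 19. *Lyve1* was at 0 UMIs in 4 of these 5 cells and at 2 in the other one. In the other 36 it ranged from 1 to 73 UMIs with a median of 9, so both sets overlap only at 1 to 2 UMIs and every SC300 BAM without *Lyve1* carried over 100 class II UMIs. *Lyve1* is a gene of the rule, and a cell without it needed 2 of the other 3 genes. *Lyz2* ranged from 43 to 180 UMIs (median 78) in the class II cells and from 0 to 66 (median 6.5) in the others. *Ccl7* had at most 3 UMIs in the class II cells and a median of 4 in the others, and the Control cell with 30 class II UMIs had 42 of *Ccl7*, 4 of *Lyve1* and 9 of *Lyz2*. *Mrc1* (9 to 30 UMIs), *F13a1* (3 to 10) and *Pf4* (11 to 26) were present in all 5, and *Flt3* was at 0. Over the 41 SC300 BAMs, the class II share had a Spearman rho of −0.42 with that of *Lyve1* and 0.50 with that of *Lyz2*.

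**Figure D3:**
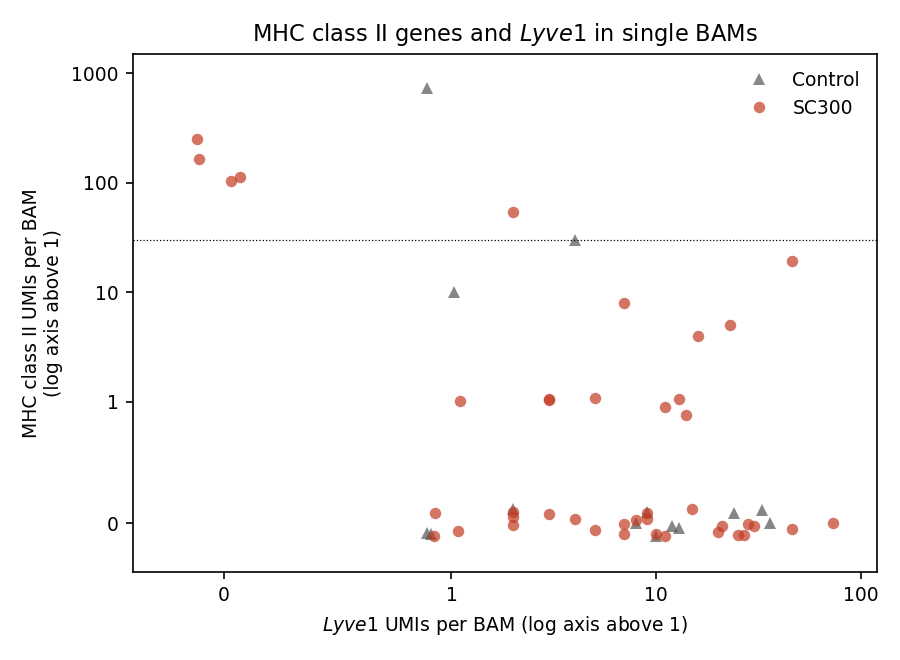
UMIs of Lyve1 (horizontal) and of Cd74, RT1-Da, RT1-Db1, RT1-Ba and RT1-Bb summed (vertical) in each BAM, Control as grey triangles and SC300 as red circles, both axes logarithmic above 1, with points at 0 and 1 shifted slightly at random. The dotted line marks 30 UMIs, above which the 5 SC300 cells lie at 0 to 2 Lyve1 UMIs, and the Control cell with 734 class II UMIs lies at 1.

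Each BAM with UMIs of *RT1-Db1*, *RT1-Ba* or *RT1-Bb* also had *RT1-Da*, though not each had all 4 chain genes, and the stretches before their transcription starts are shown for comparison. They cover 120 bases up to the start, read 5′ to 3′ on the strand of the gene, from RefSeq on build GRCr8, with the letters CTGATTGG in capitals. These letters are the core of the Y box, which the factor NF-Y binds in class II promoters. *RT1-Da* lies on the forward strand (chr20:4515295-4515414), *RT1-Ba* also (chr20:4576937-4577056), and *RT1-Db1* (chr20:4560163-4560282) and *RT1-Bb* (chr20:4604119-4604238) on the reverse strand.
RT1-Da: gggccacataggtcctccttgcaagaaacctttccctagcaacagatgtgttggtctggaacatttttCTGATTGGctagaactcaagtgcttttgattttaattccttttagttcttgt
RT1-Db1: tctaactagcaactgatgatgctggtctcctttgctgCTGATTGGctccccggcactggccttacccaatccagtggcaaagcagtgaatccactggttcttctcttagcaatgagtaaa
RT1-Ba: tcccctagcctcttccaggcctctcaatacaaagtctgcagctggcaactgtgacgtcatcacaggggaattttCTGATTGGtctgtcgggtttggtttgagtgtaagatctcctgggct
RT1-Bb: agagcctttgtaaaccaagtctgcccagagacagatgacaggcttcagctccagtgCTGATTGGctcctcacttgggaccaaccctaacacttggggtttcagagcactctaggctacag

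The letters started 52, 83, 46 and 64 bases before the start in these 4 genes. Of 12 class II genes listed, 10 had a promoter in the table and 7 of them held the letters on their own strand within 250 bases before the start. On the gene's own strand the letters occurred in 1.69% of 33469 promoters, and on either strand (CCAATCAG on the other) in 3.19%. A match of letters is a description of the sequence. *RT1-Db2*, *RT1-DMa* and *RT1-DMb* had 0 UMIs in the BAMs of both libraries.

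SC300 and Control BAMs were then compared gene by gene. Among 1189 genes with 50 or more UMIs in BAMs, 83 (6.98%) were 2-fold or more higher in SC300 and 19 (1.60%) lower, with a median log2 ratio of −0.06. In microglia of the same libraries 0.821% of 7670 genes were higher and 2.63% lower. With ratios centred on the median gene, a move of 0.20, 105 genes were higher in SC300 BAMs and 9 lower. The ratios of BAMs and microglia were 2-fold or more apart for 105 of the 1163 genes that had 50 UMIs in both classes.

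Genes of astrocytes and oligodendrocytes were prominent among the genes higher in SC300 and lay in few barcodes. Of 9 astrocyte genes listed 6 reached 50 UMIs, and these 6 were 2-fold or more higher in SC300. Of 10 oligodendrocyte-lineage genes 5 did, of which 3 were higher and 1, *Mbp*, was lower. Over all genes compared, 6.98% were higher and 1.60% lower. The astrocyte list summed to 155 CPM in Control and 2391 CPM in SC300 BAMs, led by *Agt* (angiotensinogen) with 3 and 341 UMIs. The oligodendrocyte-lineage list summed to 2126 and 4340.4 CPM and had 206 and 1565 UMIs, of which a single SC300 BAM held 1278. *Mal*, a gene of myelin membranes, had 0 and 85 UMIs. Barcodes with 20 or more UMIs of either list, a limit set after the values were seen, numbered 3 in Control and 8 in SC300 and are called mixed below. Scrublet called 2 of the SC300 ones as doublets and no other BAM.

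**Figure D4:**
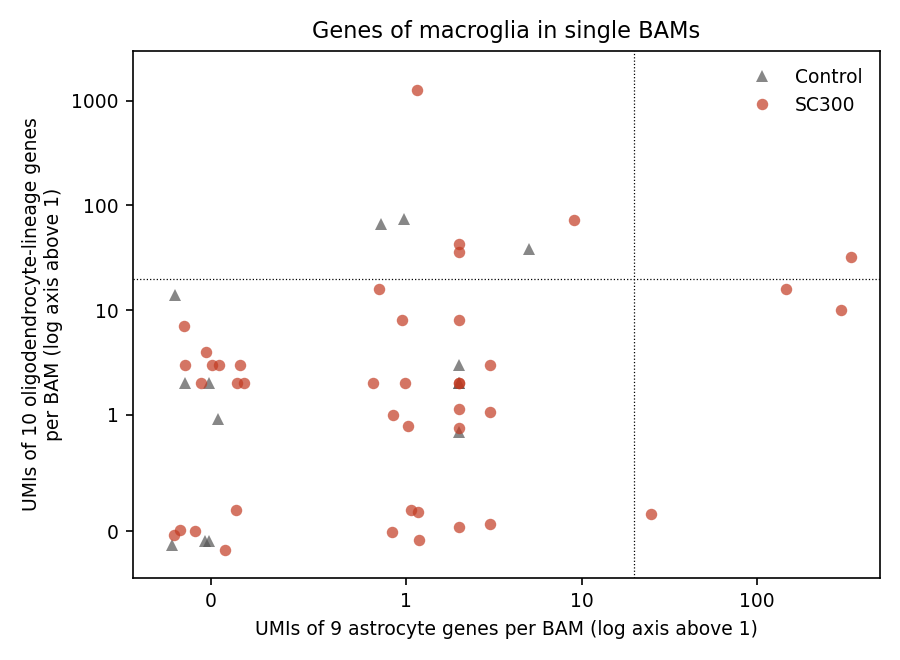
UMIs of 9 astrocyte genes (horizontal) and 10 oligodendrocyte-lineage genes (vertical) in each BAM, Control as grey triangles and SC300 as red circles, both axes logarithmic above 1, with points at 0 and 1 shifted slightly at random. Dotted lines mark 20 UMIs. Of the BAMs, 3 Control and 8 SC300 cells lie beyond at least 1 line, and the SC300 cell at the top holds 1278 UMIs of the oligodendrocyte-lineage list.

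The 11 mixed barcodes differed in their UMIs of BAM genes, and the 2 with 0 UMIs of *Pf4* are described here. A Control one with 9 UMIs of *Pdgfra*, a gene of oligodendrocyte precursors, had 0 UMIs of *Mrc1*, *Pf4* and *Clec10a* and 1 of *Cfd*, and an SC300 one with 169 UMIs of *Agt* had 4 of *Mrc1*, 0 of *Pf4*, 1 of *Clec10a* and 15 of *Cfd*, near the SC300 median of 16. Without the mixed barcodes, 11 Control and 33 SC300 BAMs were left, the log2 ratio of the shares was 1.56, and 37 of 810 genes (4.57%) were 2-fold or more higher in SC300 and 15 (1.85%) lower. Of the astrocyte genes, 0 then reached 50 UMIs, and the list summed to 105 and 124 CPM.

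Among the 12 genes with 100 or more UMIs that stood furthest above Control in SC300 were *Cldn11*, *Ptgds*, *Agt*, *Itih3*, *Tubb4a*, *Aldoc*, *Apod*, *Atp1b2*, *Fam111a*, *Clu* and *Scd2*. *Cldn11* had the highest ratio, with 1 Control and 141 SC300 UMIs (log2 ratio 5.24, 2.74 to 10.56). Its lead rests on that 1 Control UMI, and the interval includes the 4.93 of *Agt*. In SC300, 96.5% of the *Cldn11* UMIs lay in 1 barcode. A single SC300 barcode also held 91.5% of *Ptgds*, 84.8% of *Apod*, 77.3% of *Tubb4a*, 57.6% of *Scd2*, 49.6% of *Agt*, 48.0% of *Clu*, 45.7% of *Itih3*, 45.0% of *Aldoc* and 33.6% of *Atp1b2* UMIs. In the BAMs that were not mixed, these genes other than *Fam111a* had 0 to 2 UMIs in Control and 2 to 14 in SC300.

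*Fam111a*, a gene for a serine protease, was the exception. It had 0 UMIs in Control BAMs and 101 in SC300 BAMs, where 29 of 41 cells held it. With Control set to 3 UMIs it was at least 9.05-fold higher before counting error. With counting error, the exact lower limit of its log2 ratio was 2.85. Microglia had 2 and 477 UMIs of *Fam111a*, endothelial cells 1 and 467, and oligodendrocytes 1 and 109. The difference was thus present in each of these classes and not in macrophages alone. The leukocyte receptor gene *Lilrb3a* had 6 and 100 UMIs in BAMs, a log2 ratio of 2.16 (0.99 to 3.64), and a log2 ratio of 1.48 in microglia. It was detected in 5 of 14 Control and 36 of 41 SC300 BAMs.

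Some immediate-early genes, which cells switch on within minutes of a stimulus, were higher in SC300 BAMs. Of 17 immediate-early and stress genes compared, 7 were 2-fold or more higher and 0 lower, against 6.98% and 1.60% of all genes, with a median log2 ratio of 0.73. The same genes had a median of −0.07 in microglia. Without the mixed barcodes 7 were again higher, with a median of 0.78. The difference between both classes was not tested. The list summed to 10578 and 19073 CPM in BAMs and to 28505 and 28402 CPM in microglia, so that SC300 BAMs were the nearer of both to the microglial level.

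*Fos*, a subunit of the AP-1 factor, ranged from 0 to 68 UMIs in Control BAMs (median 6.5) and from 0 to 212 in SC300 BAMs (median 29). It summed to 165 and 1399 UMIs (log2 ratio 1.19, 0.95 to 1.43), against −0.05 in microglia, and a single Control cell held 41.2% of the Control UMIs. Both libraries overlapped, with 10 or more UMIs in 6 of 14 and 31 of 41 BAMs. *Junb*, its partner, had medians of 1 and 11 UMIs per cell and sums of 38 and 629, a log2 ratio of 2.15 (1.68 to 2.67), against 0.01 in microglia. *Egr1*, a zinc finger factor, had 34 and 433 UMIs (log2 ratio 1.78, 1.27 to 2.32). *Zfp36*, *Atf3*, *Nr4a1* and *Hsp90aa1* were the others past 2-fold, at 1.59, 1.28, 1.26 and 1.16, of which *Atf3* alone was also higher in microglia, at 0.90. As shares of a cell's UMIs, *Fos* and *Junb* had a Spearman rho of 0.78 over the 14 Control and 0.71 over the 41 SC300 BAMs.

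The inflammatory cytokine gene *Il1b* showed the same order. It ranged from 0 to 12 UMIs in Control BAMs (median 0) and from 0 to 108 in SC300 BAMs (median 2), with 10 or more UMIs in 1 of 14 and 13 of 41 cells. The sums were 27 and 645 UMIs (279 and 1789 CPM), a log2 ratio of 2.68 (2.13 to 3.30), while microglia were at 1839.7 and 1877 CPM. It was the only one of 4 cytokine and growth factor genes compared that was 2-fold apart. Of 11 chemokine and receptor genes compared, 2 were higher in SC300 BAMs and 0 lower, against 6.98% and 1.60% of all genes. *Ccl4* had 41 and 603 UMIs (log2 ratio 1.98, 1.53 to 2.48), and a single Control cell held 95.1% of its Control UMIs. *Ccl24*, an attractant of eosinophils, had 16 and 165 UMIs (log2 ratio 1.47, 0.73 to 2.31), was detected in 7 of 14 and 34 of 41 BAMs, and had 0 UMIs in microglia. *Ccl2* and *Ccl7* differed less, with log2 ratios of 0.39 and 0.12.

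**Figure D5:**
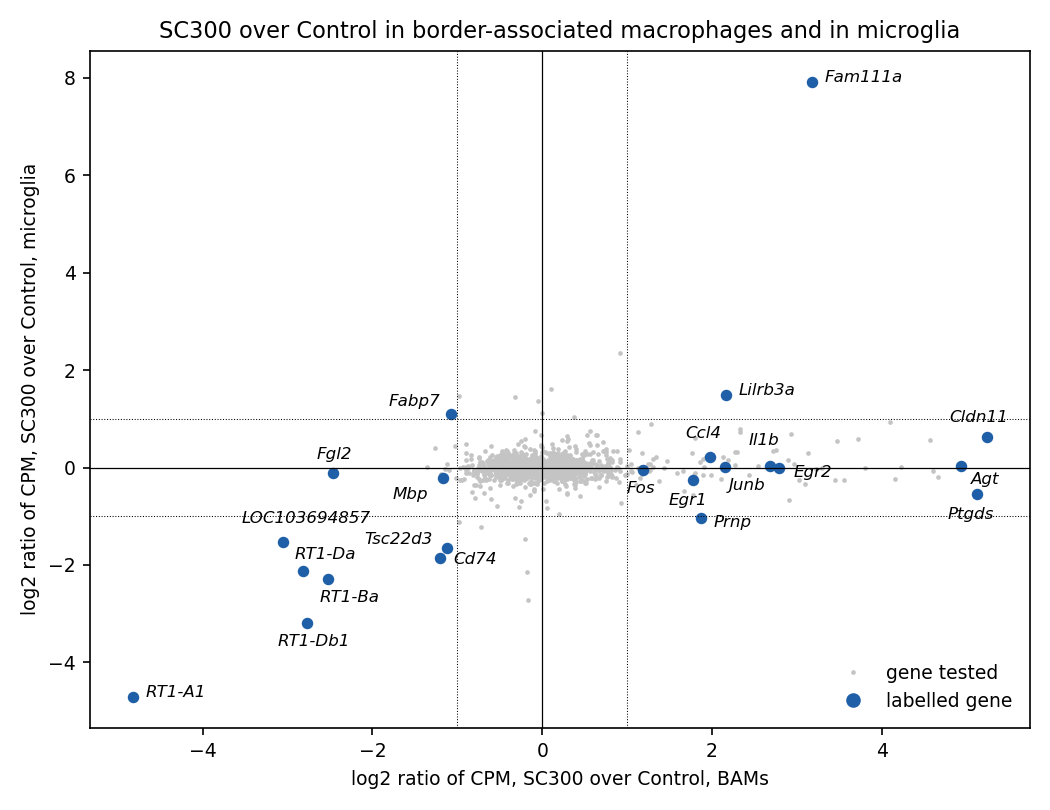
Log2 ratio of CPM in SC300 over Control, in BAMs on the horizontal and in microglia on the vertical axis, for genes with 50 or more UMIs in BAMs (grey) and for labelled genes (blue, RT1-A1 with fewer), with dotted lines at 2-fold. Il1b, Junb, Egr1 and Fos lie right of 1 and near 0 in microglia, while the class II genes, RT1-A1 and Fam111a lie apart in both classes.

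At the lower end stood the class II genes. *RT1-Da* was at 2559 CPM in Control and 363 CPM in SC300 BAMs, a log2 ratio of −2.82 (−3.13 to −2.51), *RT1-Db1* had a log2 ratio of −2.77, *RT1-Ba* one of −2.52, and *Cd74* one of −1.20 (−1.42 to −0.98). All 4 genes compared were 2-fold or more lower (all genes 1.60%). They rest on the single Control cell described above, since with the richest cell of each library left out for each gene the log2 ratios were 2.19, 1.83, 1.42 and 1.06, in the other direction. In microglia, *RT1-Da* had 280 and 63 UMIs in 37 of 461 and 13 of 443 cells, and *Cd74* 755 and 207 UMIs in 121 and 73 cells, log2 ratios of −2.13 and −1.85. *RT1-A1*, a class I gene with 38 and 5 UMIs in BAMs, had a log2 ratio of −4.82 (−6.52 to −3.47) and was at −4.71 in microglia (2759 and 104 UMIs). It was detected in 11 of 14 Control and 4 of 41 SC300 BAMs. None of the 5 class I genes with 50 or more UMIs was 2-fold apart, with a median log2 ratio of −0.23. Class I RT1 genes include closely similar copies, so the value of *RT1-A1* is uncertain, and how reads were divided among copies was not tested.

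Among the others of the 12 lowest were *Fgl2*, *Mbp*, *Vim*, *Ltc4s*, *Rpl10a*, *Cnbp* and *AABR07068694.1*. *Fgl2*, a fibrinogen-like secreted protein, had 68 and 46 UMIs (log2 ratio −2.46, −3.03 to −1.90), with 38.2% and 45.7% of them in a single cell. *Mbp* (myelin basic protein) and *Vim* had single Control cells with 46.1% and 67.7% of their UMIs. Without the mixed barcodes the log2 ratio of *Mbp* moved from −1.17 to −0.34 (−1.17 to 0.56), under 2-fold, and that of *Vim* from −1.12 to −1.04. *Ltc4s*, *Rpl10a*, *Cnbp* and *AABR07068694.1* were under 2-fold apart with all BAMs counted, at −0.97 to −0.84. Without the mixed barcodes *Cnbp* was past 2-fold, at −1.27 (−1.89 to −0.63).

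Counts for the other lists are to be read beside the 6.98% of all genes that were higher and the 1.60% that were lower, from which 0 or 1 gene of a short list is not set apart. Of 12 border macrophage genes compared, 1 was 2-fold higher in SC300 (*Ccl24*) and 1 lower, with a median log2 ratio of −0.12. *Mrc1* had a log2 ratio of −0.17 (−0.35 to 0.01), *Pf4* of −0.15 (−0.36 to 0.07), *Clec10a* of 0.35 (0.14 to 0.57) and *F13a1* of 0.70 (0.30 to 1.12). *Apoe* was at 20835 and 30458 CPM, a log2 ratio of 0.55 (0.48 to 0.62), close to the 0.51 of microglia. None of the 15 lysosome genes, 3 scavenger and uptake receptor genes, 5 complement genes, 3 Fc receptor genes, 4 innate sensing genes, 6 lipid handling genes, 7 oxidative burst genes, 2 CSF and TGF-beta receptor genes or 1 coagulation and matrix gene compared was 2-fold apart with all BAMs counted. Without the mixed barcodes *Colec12* was at 1.03, *Cd14* at 1.08 and the superoxide dismutase gene *Sod2* at 1.71, where they had been at 0.92, 0.56 and 0.82. With all BAMs counted, the median log2 ratios of these lists lay between −0.57 and 0.19. Of 6 iron and haem genes 1 was higher, the haem transporter gene *Slc48a1* with 5 and 47 UMIs (log2 ratio 1.34, or 0.49 without the mixed barcodes), and of 6 macrophage transcription factors 1 was lower. Of 2 interferon-stimulated genes compared 1 was higher, *Ifi27l2b* with 4 and 65 UMIs, while *Ifi27* had a log2 ratio of −0.72. No cell cycle gene reached 50 UMIs, and *Mki67*, a gene of dividing cells, had 0 and 3 UMIs. Of 4 microglia genes compared, 1 was higher, *Sparc* with 1 and 94 UMIs, of which a mixed barcode held 57.4%, and its log2 ratio without the mixed barcodes was 0.88.

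Receptors for estradiol and progesterone were not detected in BAMs. *Esr1*, *Esr2* and *Gper1* (estrogen receptors) and *Pgr* (the progesterone receptor) each had 0 UMIs in the 14 Control and 41 SC300 BAMs. The limit of 3 UMIs comes to 31.0 and 8.32 CPM for each gene, and 3 cells come to 21.4% and 7.32% of BAMs with a UMI. Microglia held at most 1.09 CPM of any of them. *Nr3c2*, the mineralocorticoid receptor gene, was also at 0. *Tsc22d3*, a glucocorticoid target, was the only gene of that list to reach 50 UMIs. It had 21 and 36 UMIs (log2 ratio −1.12, −1.93 to −0.27), against −0.90 without the mixed barcodes and −1.65 in microglia.

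Markers of other cells were counted in BAMs as well. The list for T, NK and B cells had 0 UMIs in both libraries, with all 10 of its genes in the files at 0. Monocyte genes had 4 and 7 UMIs over 8 genes, of which *Vcan* had 2 and 5, with *S100a8* and *S100a9* at 0. Dendritic cell genes had 1 and 6 UMIs over 10 genes, and neutrophil and mast cell genes 0 and 2 over 9. Neuron genes had 6 and 32 UMIs, endothelial genes 2 and 19, mural cell genes 0 and 8, and fibroblast genes 12 and 45, of which *Pdgfra* in 1 mixed barcode of each library made up 9 and 21. Ependymal and tanycyte genes had 68 and 127 UMIs, of which *Vim*, which macrophages also express, made up 65 and 111. Erythrocyte genes had 55 and 28 UMIs. *LOC103694857*, the haemoglobin gene with most of them, had 49 and 22, a log2 ratio of −3.05 (−3.85 to −2.30), and was at −1.53 in microglia, where it had 22945 and 7817 UMIs. Apart from the mixed barcodes, the part that RNA of other cells had in the differences above was not tested.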

How the data were processed

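UMI counts per gene and barcode, not normalized, were deposited by the authors for each library, made with Cell Ranger on an Ensembl rat annotation. The submitters' processing notes name version 3.0.1. The deposited gene and barcode lists were used as given, and 32883 genes were read. Of 4488 Control and 4524 SC300 barcodes, 4296 and 4379 had at least 200 genes, the filter of the study's methods, and were kept. The methods state 2 cell counts for each library, of which the larger equals the deposited barcodes and the smaller is below those kept. The members and gene lists were chosen with earlier results of these data known, and some genes are on several lists. Barcodes were taken by the marker rule stated in the text, and UMIs were summed over the cells of a class in each library. With 1 library per group no test was made. A gene was called at 2-fold or more, with at least 50 UMIs in BAMs (SC300 against Control), or a mean of 20 CPM and 2-fold in both libraries (BAMs against microglia). A count of 0 was set to 3 UMIs, which is the limit given for a gene at 0 and is not an exact 95% limit. Exact 95% intervals were Clopper-Pearson for shares, and for ratios came from the binomial distribution of a gene's UMIs between both sums. Genes were named as the rule genes and markers, up to 4 of each list with the most UMIs, those 2-fold apart, and the 12 highest and 12 lowest ratios of SC300 over Control (at least 100 UMIs), 15 highest and 10 lowest of BAMs over microglia, and the 10 most abundant. The planned split by high, middle and low class II share could not be made. Listed genes that were not found by symbol, such as *Pecam1* and *Ccr2*, were not analysed here, and some named genes are not reported here. *Siglec1*, *Vsig4*, *Slc40a1*, *Treml1*, *Itga2b*, *Clec1b*, *Cybb*, *C5ar1*, *Cd14*, *Sod2*, *Cd68*, *Sall1*, *Spi1*, *RT1-A1*, *RT1-Bb*, *Lilrb3a*, *Prnp*, *Fabp7*, *Flt3* and others outside it were chosen after their values were seen. Doublets were called with Scrublet (scanpy 1.11.5) and kept. The alternatives were stricter member rules, limits on mitochondrial UMIs and genes, doublets or mixed barcodes left out, other scalings, equal weight of barcodes, the richest barcode left out, thinning, and other minima. Python 3.11.15, numpy 2.4.6, scipy 1.17.1 and pandas 2.3.3 were used, and the sums and ratios were tested on simulated data. Promoters came from a RefSeq table.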

Additional observations from a re-analysis of the deposited data

Results flagged for a closer look

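For 2 genes the ratio of SC300 over Control was 2-fold or more in BAMs and 2-fold or more the other way in microglia, and the difference was not tested. *Prnp*, the prion protein gene, had 5 and 68 UMIs in BAMs, a log2 ratio of 1.87 (0.58 to 3.54), and −1.04 in microglia. Without the mixed barcodes its log2 ratio in BAMs was 0.88 (−1.29 to 4.08), with 2 and 12 UMIs. *Fabp7*, a fatty acid binding protein gene of astrocytes and precursors, had 22 and 39 UMIs in BAMs, a log2 ratio of −1.07 (−1.86 to −0.25), and 1.09 in microglia. A single barcode held 72.7% of its Control and 53.8% of its SC300 UMIs, and 3 and 1 UMIs were left without the mixed barcodes.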

How the results depend on the processing

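The higher share of BAMs in SC300 held its direction under all alternatives run, with log2 ratios from 1.37 (thinned to 2000 UMIs) to 1.69 (at most 20% mitochondrial UMIs). Counts of genes moved most with the minimum level. With 20 UMIs in place of 50, 325 genes were higher and 128 lower in SC300 BAMs, and 453 differed 2-fold from microglia in their ratio. With 100 UMIs these were 32, 8 and 40. With the mixed barcodes left out, an alternative chosen after seeing the data, 37 were higher and 41 differed from microglia. With ratios centred on the median gene, or with the richest barcode of each gene left out, 9 genes were lower in SC300. With a mean of 50 and of 5 CPM, 202 and 790 genes were higher in BAMs than in microglia.

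Single barcodes decided the class II values. With at least 3 of the 4 marker genes, the log2 ratios of SC300 over Control were 2.73 for *RT1-Da*, 2.58 for *RT1-Db1*, 1.81 for *RT1-Ba*, 1.31 for *Cd74* and 0.27 for *Vim*, in the other direction, since the Control cell with 734 class II UMIs had only 2 marker genes. The Control ratios over microglia were then −0.67, −0.26 and −0.23 for the first 3 genes. With the richest barcode left out, the ratios of SC300 over Control were 2.19, 1.83, 1.42, 1.06 and 0.18, and that of *RT1-Da* over microglia in Control was −0.43. Without the mixed barcodes *Agt* was at −0.71, with 2 and 4 UMIs. Of 163 named values checked, 159 could be computed with the richest barcode left out and 161 without the mixed barcodes. No other computed value that was 2-fold apart turned its direction.

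No paired analysis was possible because each group has 1 library and the groups share only 1 replicate number. With 14 Control BAMs and 96902 UMIs, the limit of 3 UMIs for a gene at 0 came to 31.0 CPM, and the values do not extend to other rats.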

Other observations

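Beside *Apoe*, *Fth1*, *Ftl1*, *Ccl2*, *Cst3* and *C1qa*, the 10 most abundant genes of BAMs outside ribosomal protein genes and genes with an Mt- symbol were *Tmsb4x*, *Tpt1* and *AC134224.3* and *AY172581.24*, which have no gene name. The latter is named after the rat mitochondrial genome sequence and is not counted in the mitochondrial shares. *Tmsb4x*, which encodes the actin-binding peptide thymosin beta 4, was at 27925 CPM in Control BAMs and at 31992 CPM in Control microglia. In SC300 it was at 24220.5 and 31754 CPM. *Tpt1*, a translationally controlled protein, was at 10340.3 CPM in Control and 8822 CPM in SC300 BAMs, with log2 ratios over microglia of 1.02 and 0.64. *AC134224.3* was at 21135 and 26581 CPM and *AY172581.24* at 8235 and 11399 CPM in Control and SC300 BAMs, under 2-fold from microglia in both libraries.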
